A study of Mus musculus with 8 samples.

Results

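Type I interferon stimulated genes (ISGs) were examined in macrophages sorted from epididymal white adipose tissue (eWAT) by surface FCGR4, an activating receptor for IgG. The list holds 43 gene symbols, all of which were found among the 54146 genes of the deposited counts, and all 43 had enough counts to be tested among 17095 genes. Rows were matched by symbol, with no threshold on an expression value, but the list was drawn up with earlier results of these data known. Bulk RNA-Seq libraries of FCGR4+ and FCGR4- macrophages were made from each of 4 obese mice, giving 8 libraries and 4 pairs. Every mouse, whose genotype was labeled C57Bl6, had eaten a high fat diet freely for 24 weeks and then, in short-term caloric restriction (stCR) lasting 2 weeks, had been given 30% less food, so the series holds no lean, unrestricted, or interferon-treated group. The labels give no age. Mice 1 and 2 carry 1 animal ID prefix in the labels and mice 3 and 4 another, and the labels do not say what the prefix stands for.

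Type I interferons (the IFN-α family and IFN-β) bind the receptor formed by IFNAR1 and IFNAR2, and the kinases JAK1 and TYK2 then phosphorylate STAT2, which with IRF9 belongs to the complex ISGF3. This complex binds interferon stimulated response elements in the promoters of ISGs. The products sense foreign nucleic acids, degrade RNA, block translation, or hold virions at membranes, and some feed back on the pathway, as IRF7 does by driving interferon genes and USP18 by restraining the receptor. Macrophages are both a source and a target of these cytokines.

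Promoter stretches are shown first because a sequence that ISGF3 can bind is what many ISGs share, and the list was not chosen on it. Promoter windows of 250 bases before to 50 after a gene's start (RefSeq, build GRCm38.p6) were matched for 32 of the 43 genes. The letters GAAANNGAA, searched on both strands with overlapping matches counted, occurred in at least 1 window of 20 of the 32 (62.5%) and of 2638 of 27025 genes in the RefSeq table (9.76%). At least 2 matches in 1 window were present for 13 of the 32 (40.6%) and for 199 of all genes (0.736%). The following stretches, each 5′ to 3′ along its gene, have the matched letters in capitals, and capitals that begin with TTC are a match on the opposite strand, read as its reverse complement. *Isg15*, *Rsad2*, *Ifit1*, *Ifit3*, and *Ifit3b* are shown because they differed most between mice among the genes with a match, *Oas1a* and *Oas1g* because they are near copies, *Bst2* because it had the lowest P value between the populations, and *Stat2* and *Eif2ak2* because they have a match and are among the 7 genes for which mice 3 and 4 were not above mice 1 and 2 in both populations, as is *Samd9l*, whose stretch is not shown.
Isg15, chr4:156200850-156200910, minus strand: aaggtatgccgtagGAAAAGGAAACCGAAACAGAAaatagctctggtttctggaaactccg
Rsad2, chr12:26456537-26456597, minus strand: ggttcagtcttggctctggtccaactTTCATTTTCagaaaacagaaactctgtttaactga
Ifit1, chr19:34640779-34640839, plus strand: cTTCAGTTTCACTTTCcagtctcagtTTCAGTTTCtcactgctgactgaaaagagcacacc
Ifit3, chr19:34583401-34583461, plus strand: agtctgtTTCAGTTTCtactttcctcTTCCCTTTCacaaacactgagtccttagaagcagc
Ifit3b, chr19:34607797-34607857, plus strand: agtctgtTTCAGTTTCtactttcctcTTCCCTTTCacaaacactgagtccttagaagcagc
Oas1a, chr5:120907505-120907565, minus strand: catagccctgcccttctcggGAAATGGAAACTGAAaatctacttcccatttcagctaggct
Oas1g, chr5:120887591-120887651, minus strand: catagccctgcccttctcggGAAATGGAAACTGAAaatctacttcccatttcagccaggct
Bst2, chr8:71537562-71537622, minus strand: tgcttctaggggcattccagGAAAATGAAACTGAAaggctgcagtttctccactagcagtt
Stat2, chr10:128270251-128270311, plus strand: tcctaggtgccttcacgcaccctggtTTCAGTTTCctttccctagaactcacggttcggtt
Eif2ak2, chr17:78882523-78882580, minus strand: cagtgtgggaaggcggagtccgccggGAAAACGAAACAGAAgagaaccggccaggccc
The motif was found 3 times in the windows of *Isg15*, *Ifit1*, *Ifit3*, and *Ifit3b*, and the printed stretches of the last pair are identical. It was not found in these windows for *Irf7*, *Irf9*, *Isg20*, *Ifit2*, *Oasl1*, *Oasl2*, *Cmpk2*, *Xaf1*, *Herc6*, *Ifi35*, *Sp100*, or *Dtx3l*. A match is a run of letters and was not tested as a binding site.

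Total counts per library lay between 35992794 and 66856746, and 3 counts correspond to 0.0440 to 0.0883 normalized CPM (counts relative to library size, after TMM scaling). The lowest count of any of the 43 genes in any library was 16, for *Mx2*. *Fcgr4* itself was at 139 to 236 normalized CPM in FCGR4+ libraries and 48.5 to 82.9 in FCGR4- libraries. The summed level of macrophage markers was high in both populations and higher in FCGR4+ libraries in 4 of 4 mice, while that of 7 other lists (mast cell and basophil, B cell, T and NK cell, neutrophil, fibroblast, and conventional and plasmacytoid dendritic cell) was lower in 4 of 4 mice. The gap was widest for mast cells and basophils, at 6.85 to 24.0 normalized CPM in FCGR4+ and 194 to 2073 in FCGR4- libraries. It was narrowest for plasmacytoid dendritic cells, at 36.3 to 50.4 and 36.8 to 50.6, most of it *Tcf4*, whose own level was the higher one in the FCGR4+ library of every mouse. Of the 7 tested markers of these cells edgeR called 0 and DESeq2 called 3 lower, *Spib*, *Ly6d*, and *Pacsin1*, each under 5 normalized CPM. Of the conventional dendritic cell list, 5 of 8 tested genes were called lower in FCGR4+ cells. In bulk samples, fewer cells of a type and less RNA per cell cannot be told apart.

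None of the 43 genes passed the threshold between FCGR4+ and FCGR4- macrophages (the quasi-likelihood test of edgeR, blocked by mouse, with a Benjamini-Hochberg adjusted P under 0.1 over all tested genes). Of all 17095 genes, 14 (0.0819%) were called higher and 203 (1.19%) lower in FCGR4+ cells, against 0 and 0 of the 43. At an unadjusted P under 0.05, 8 of the 43 were counted, all with higher levels in FCGR4+ cells, beside 1671 of all genes in either direction (9.77%). DESeq2 with the same pairing called 2 of the 43 higher, *Bst2* and *Oas1g*, and 0 lower, beside 192 of all genes called higher (1.12%) and 832 lower (4.87%). The fitted log2 fold changes ran from -0.33 (*Stat2*) to 1.08 (*Mx2*) with a median of 0.18, beside a median of -0.00254 over all tested genes, and 27 of the 43 were above 0. Adjusted P values by edgeR lay between 0.271 and 0.970. The FCGR4+ and FCGR4- libraries overlapped in level for 43 of the 43 genes, and the ranges of 668 of all tested genes (3.91%) did not overlap. These ranges ignore the pairing, so differences between mice widen them whatever the difference within a mouse.

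**Figure D1:**
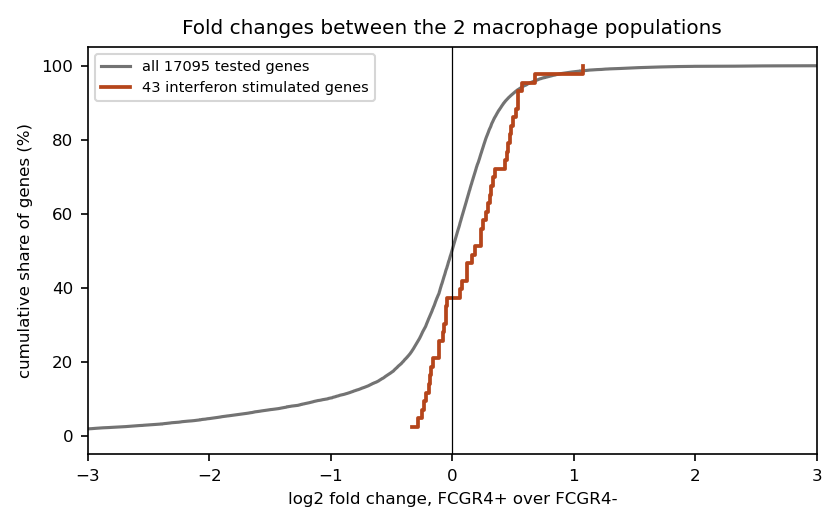
Cumulative share of genes (%) by log2 fold change of FCGR4+ over FCGR4- macrophages, for 43 interferon stimulated genes (stepped line) and 17095 tested genes (smooth line); the x axis is limited to -3 to 3. The ISGs lie between -0.33 and 1.08, with a median of 0.18, and lack the long lower tail of all genes.

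The transcription factors did not share a direction. *Irf7*, on chr7:141262706-141266481 of mm10, was at 50.4, 79.1, 412, and 739 normalized CPM in the FCGR4+ libraries of mice 1 to 4 and at 22.1, 46.6, 492, and 638 in the FCGR4- libraries. It had the higher level in FCGR4+ cells of 3 of 4 mice, and mice 3 and 4 were far above mice 1 and 2 in both populations (log2 fold change between populations 0.48, standard error 0.240, adjusted P = 0.563 by edgeR). *Irf9*, the DNA-binding subunit of ISGF3, was at 34.2, 30.0, 28.4, and 35.3 in FCGR4+ and at 34.5, 30.2, 38.0, and 42.3 in FCGR4- libraries. It was lower in FCGR4+ cells in 4 of 4 mice, by little in mice 1 and 2 (-0.18, standard error 0.140, adjusted P = 0.678 by edgeR). *Stat2*, the transactivating subunit, was at 16.2, 9.17, 9.73, and 16.9 in FCGR4+ and at 11.3, 10.2, 22.5, and 23.7 in FCGR4- libraries, lower in FCGR4+ cells in 3 of 4 mice (-0.33, standard error 0.280, adjusted P = 0.693 by edgeR).

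Of the 7 nucleic acid sensors, 5 had a log2 fold change above 0, with a median of 0.26. *Zbp1*, a sensor of Z-form nucleic acid that can trigger cell death, was at 34.6, 23.0, 112, and 158 normalized CPM in FCGR4+ and at 14.8, 17.0, 104, and 119 in FCGR4- libraries of mice 1 to 4. The FCGR4+ library was the higher in every mouse, with the largest ratio in mouse 1 (0.54, standard error 0.198, adjusted P = 0.429 by edgeR and 0.141 by DESeq2). *Ifi204*, a DNA sensor of the Ifi200 family, was at 118, 63.7, 296, and 385 in FCGR4+ and at 70.6, 52.1, 272, and 334 in FCGR4- libraries (0.34, standard error 0.150, adjusted P = 0.519 by edgeR). It too had the higher level in FCGR4+ cells of 4 of 4 mice, but its counts are uncertain because 20.0% of its sequence is shared with other genes. The RIG-I-like receptors had log2 fold changes of 0.28 (*Ifih1*, which encodes MDA5), -0.05 (*Ddx58*, RIG-I), and 0.12 (*Dhx58*, LGP2), *Ddx60* of -0.05, and *Ifi203* of 0.26.

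Among the translation inhibitors, the *Ifit* genes, whose products bind viral RNA or initiation factors, had log2 fold changes of -0.16 (*Ifit1*), 0.52 (*Ifit2*), 0.32 (*Ifit3*), and 0.12 (*Ifit3b*), with standard errors between 0.350 and 0.559 that were among the largest of the list. *Eif2ak2*, which encodes the kinase PKR, had a log2 fold change of -0.05 and a standard error of 0.150. The mice differed in direction: *Ifit2* was at 24.6 in FCGR4+ and 3.08 in FCGR4- cells of mouse 1, and at 60.4 and 90.6 in mouse 3. *Ifit3* and *Ifit3b* share 51.2% and 45.0% of their sequence with other genes, mostly each other, and multimapping read pairs were counted at every place, so they cannot be taken as separate measurements.

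Active members of the oligoadenylate synthetase family activate RNase L on sensing double-stranded RNA. *Oas1g*, on chr5:120876142-120887613, was at 31.3, 33.8, 119, and 173 normalized CPM in FCGR4+ and at 23.9, 24.6, 97.8, and 115 in FCGR4- libraries. The FCGR4+ library was the higher in 4 of 4 mice by similar ratios (0.43, standard error 0.127, adjusted P = 0.291 by edgeR and 0.0613 by DESeq2). Its near copy *Oas1a* had a log2 fold change of 0.30 and was higher in 4 of 4 mice, though in mouse 3 the libraries were nearly equal, and they share 45.7% and 57.6% of their sequence with other genes, mostly each other. The log2 fold changes of the others were -0.25 (*Oas2*), 0.24 (*Oas3*), -0.08 (*Oasl1*), and 0.23 (*Oasl2*). Of the other effectors that act on RNA or nucleotides, 0 of 4 were above 0, at -0.20 for the exonuclease gene *Isg20*, -0.07 for *Rsad2* (viperin), -0.21 for the nucleotide kinase gene *Cmpk2*, and -0.19 for *Samd9l*.

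The 4 genes of dynamin-like GTPases and membrane restriction factors all had log2 fold changes above 0, with a median of 0.46, and 3 of them were higher in FCGR4+ cells in 4 of 4 mice. *Bst2* (tetherin, which holds budding virions at the cell surface), on chr8:71534255-71537456, was at 44.2, 67.4, 201, and 238 normalized CPM in FCGR4+ and at 34.9, 57.9, 111, and 129 in FCGR4- libraries. The gap was wider in mice 3 and 4 than in mice 1 and 2 (0.57, standard error 0.164, adjusted P = 0.271 by edgeR and 0.0363 by DESeq2). *Ifitm3*, which blocks viral fusion in endosomes, was at 371, 497, 1514, and 1722 in FCGR4+ and at 259, 367, 1400, and 1359 in FCGR4- libraries (0.35, standard error 0.131, adjusted P = 0.437 by edgeR). *Mx2* was at 1.53, 1.12, 4.85, and 7.10 in FCGR4+ and at 0.292, 0.471, 2.74, and 6.68 in FCGR4- libraries. Its log2 fold change, the largest of the 43 at 1.08, rested on low counts, and the populations were nearly equal in mouse 4 (standard error 0.411, adjusted P = 0.459 by edgeR), and that of *Mx1* was 0.06.

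In the ISG15 system, *Isg15*, the ubiquitin-like modifier, was at 6.34, 5.26, 104, and 192 normalized CPM in FCGR4+ and at 2.42, 5.39, 98.1, and 133 in FCGR4- libraries. Mice 3 and 4 were far above mice 1 and 2 in both populations, and the populations differed by 0.48 on the log2 scale (standard error 0.241, adjusted P = 0.563 by edgeR). The deconjugating protease gene *Usp18* was at -0.23 and the ubiquitin ligase gene *Trim30a* at 0.08. *Herc6*, the mouse ligase for ISG15, was at 20.7, 12.2, 27.5, and 25.0 in FCGR4+ and at 9.65, 11.5, 20.1, and 19.5 in FCGR4- libraries, higher in 4 of 4 mice (0.50, standard error 0.198, adjusted P = 0.482 by edgeR). *Parp9*, a partner of the ubiquitin ligase DTX3L, was at 39.7, 24.1, 32.3, and 41.5 in FCGR4+ and at 23.7, 19.6, 21.2, and 37.6 in FCGR4- libraries (0.45, standard error 0.155, adjusted P = 0.388 by edgeR). It had the higher level in FCGR4+ cells of 4 of 4 mice, while *Dtx3l*, which overlaps it on the opposite strand, was at 0.16 and *Parp14* at -0.11. Strand was not used in the counting, so reads of overlapping genes cannot be told apart.

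Of the 7 remaining genes, 5 had a log2 fold change above 0, with a median of 0.31. *Rtp4*, a receptor transport protein gene induced by interferon, was at 47.6, 25.8, 153, and 207 normalized CPM in FCGR4+ and at 24.9, 22.2, 134, and 145 in FCGR4- libraries. It had the higher level in FCGR4+ cells of 4 of 4 mice (0.46, standard error 0.165, adjusted P = 0.415 by edgeR). The others were at 0.68 (*Ifi44*), 0.54 (*Ifi27l2a*), 0.31 (*Xaf1*), 0.18 (*Ifi35*), -0.11 (*Sp100*), and -0.28 (*Slfn5*). The counts of *Herc6*, *Rtp4*, *Ifi35*, *Slfn5*, *Ifi203*, and *Ifitm3* are uncertain too, since 10.02% to 12.5% of their sequence is shared, and exons of the first 4 overlap those of another gene over 8.84% to 16.8% of their length.

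The direction of the 43 genes varied with the mouse. In mouse 1, 38 of 43 were higher in FCGR4+ cells (median log2 ratio 0.67), in mouse 2 28 (0.22), in mouse 3 17 (-0.36), and in mouse 4 23 (0.05). Over all tested genes the share higher in FCGR4+ cells was 52.5%, 49.5%, 47.3%, and 49.4% in these mice. Thus mouse 1 had the most ISGs higher in FCGR4+ cells and mouse 3 the fewest. In total, 12 of the 43 were higher in FCGR4+ cells in 4 of 4 mice, as were 8.35% of all tested genes, and *Irf9* alone was lower in 4 of 4, as were 10.4% of all tested genes. Fitted on mice 1 and 2 alone, the median log2 fold change of the 43 was 0.42, and on mice 3 and 4 alone it was -0.23, with 0 called in either direction in each. Without mouse 1 the median was -0.06. Among the 12 genes given by library, leaving out mouse 1 moved *Irf7* to 0.24, *Stat2* to -0.62, *Zbp1* to 0.32, *Ifi204* to 0.20, *Herc6* to 0.30, *Rtp4* to 0.31, and *Mx2* to 0.68, and leaving out mouse 3 moved *Stat2* to -0.05 and *Irf9* to -0.11. The others of the 12 moved by less than 1.5 times, and none was called in these fits.

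**Figure D2:**
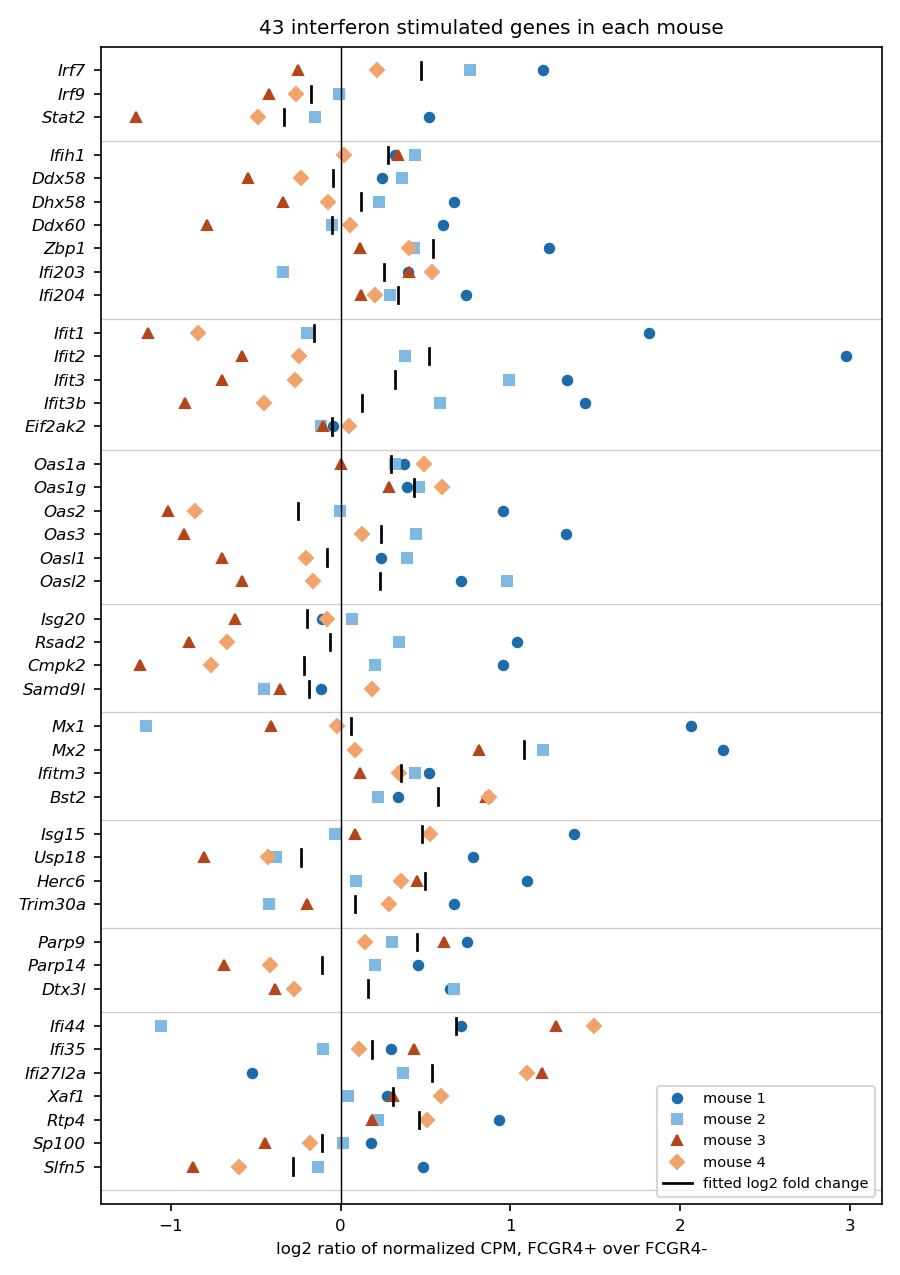
Log2 ratio of normalized CPM, FCGR4+ over FCGR4- (x axis), of each of the 43 genes (y axis, blocks by role) in mice 1 to 4 (symbols), with the fitted log2 fold change as a bar. Mouse 1 lies to the right of 0 for 38 genes and mouse 3 for 17, and the rows of *Ifit2*, *Ifit1*, and *Mx1* spread widest between them.

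A group of 12 genes was higher in FCGR4+ cells in both mice 1 and 2 and lower in both mice 3 and 4, as were 9.92% of all tested genes. They were *Ddx58*, *Dhx58*, *Ifit2*, *Ifit3*, *Ifit3b*, *Oasl1*, *Oasl2*, *Rsad2*, *Cmpk2*, *Parp14*, *Dtx3l*, and *Sp100*. *Rsad2* was at 11.4 and 19.9 normalized CPM in FCGR4+ against 5.54 and 15.7 in FCGR4- cells of mice 1 and 2, and at 120 and 200 against 223 and 319 in mice 3 and 4. None of the 43 showed the opposite arrangement. The difference itself was tested as an interaction of population with ID prefix, a comparison chosen after the values had been seen. With edgeR, 0 of the 43 passed (adjusted P from 0.303 to 0.985), as did 0 of all genes, and 19 of the 43 had an unadjusted P under 0.05 beside 2355 of all genes (13.8%). With DESeq2, 11 passed with a lower and 2 with a higher effect in mice 3 and 4, beside 977 of all genes in either direction (5.72%). The interaction, as the log2 fold change in mice 3 and 4 minus that in mice 1 and 2, was -1.65 for *Ifit3* (adjusted P = 0.303 by edgeR), and for *Ifi27l2a* and *Bst2* the interaction was 1.22 and 0.59 (adjusted P = 0.304 and 0.321 by edgeR).

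The levels themselves separated the mice far more than the populations did. For 36 of the 43 genes both libraries of mice 3 and 4 were above both of mice 1 and 2 in each population, as they were for 1944 of 17095 tested genes (11.4%). The 7 others were *Irf9*, *Stat2*, *Eif2ak2*, *Samd9l*, *Parp9*, *Parp14*, and *Dtx3l*. Summed over the 43 genes, the level was 1256 to 1712 normalized CPM in the 4 libraries of mice 1 and 2 and 5472 to 7291 in the 4 of mice 3 and 4. This comparison was chosen after the values had been seen, and the FCGR4+ and FCGR4- libraries come from the same mice, so the populations do not give independent results. With 2 mice a prefix, whatever else differed between the prefixes cannot be told apart from them.

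**Figure D3:**
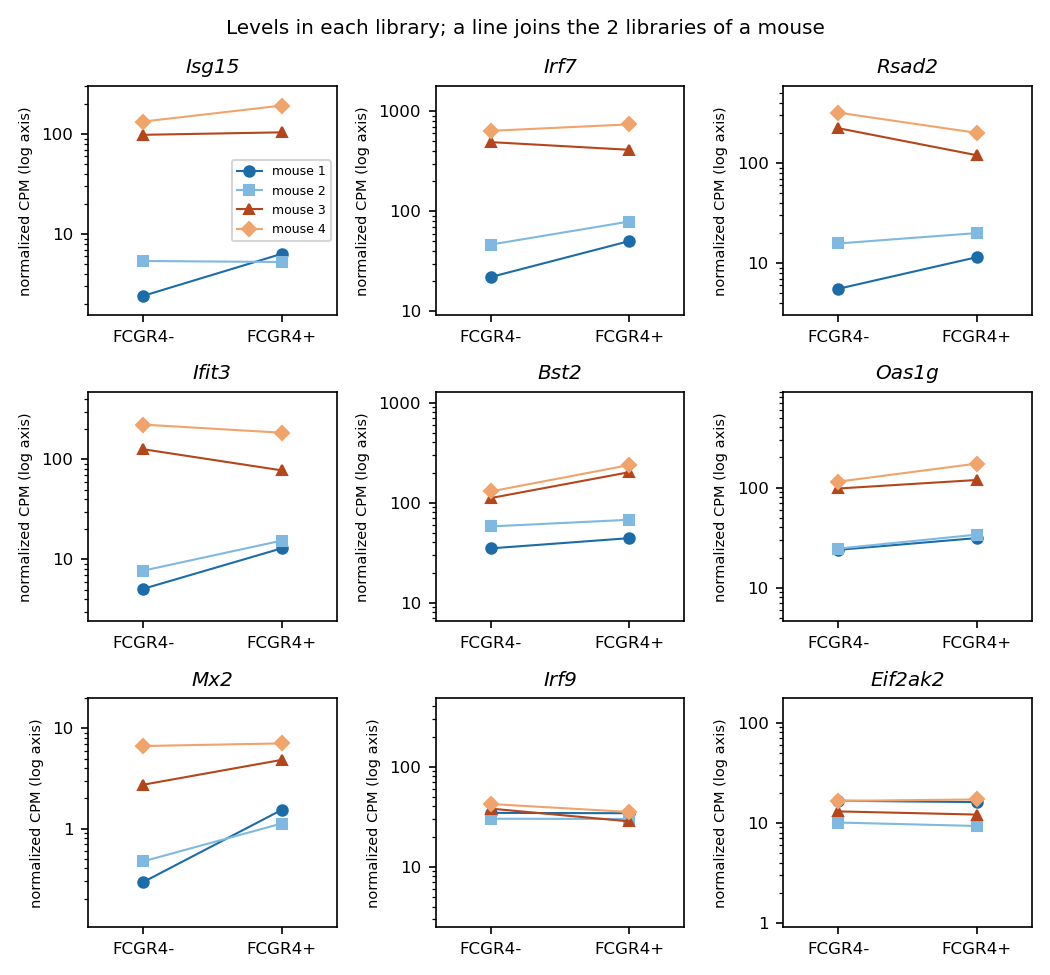
Normalized CPM (log axis of equal span in each panel) of 9 genes in FCGR4- and FCGR4+ libraries, with a line joining the libraries of a mouse. Mice 3 and 4 lie above mice 1 and 2 for *Isg15*, *Irf7*, *Rsad2*, *Ifit3*, *Bst2*, *Oas1g*, and *Mx2*, and the 4 mice lie close together for *Irf9* and *Eif2ak2*.

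*Isg15* differed most, with a log2 fold change of mice 3 and 4 over mice 1 and 2 of 4.67 in FCGR4+ libraries (standard error 0.394) and of 4.92 in FCGR4- libraries (standard error 0.499), about 25.4-fold and 30.3-fold. In the order of the mean of both populations, *Rsad2* followed at 3.34 and 4.69, *Ifit3* at 3.21 and 4.79, its near copy *Ifit3b* at 3.13 and 4.67, *Isg20* at 3.73 and 4.04, and *Irf7* at 3.15 and 4.06. At the other end, *Irf9* was at -0.02 and 0.33, *Eif2ak2* at 0.19 and 0.16, and *Dtx3l* at -0.51 and 0.50. The median of the 43 was 1.89 in FCGR4+ and 2.14 in FCGR4- libraries, while over all tested genes it was -0.08 and -0.02. By role, the *Ifit* and PKR group had medians of 2.65 and 4.47, the oligoadenylate synthetases 1.76 and 2.73, the sensors 1.26 and 1.89, and the ADP-ribosylation group (*Parp9*, *Parp14*, and *Dtx3l*) -0.13 and 0.50.

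With 2 mice against 2, the number of calls depended on the test. In FCGR4+ libraries, edgeR called 0 of the 43 higher in mice 3 and 4, beside 7 of 17094 genes (0.041%). At an unadjusted P under 0.05, 33 were higher and 1 lower, beside 1615 of all genes higher (9.45%), and DESeq2 called 34, beside 1240 genes (7.25%). In FCGR4- libraries, edgeR called *Zbp1*, *Rtp4*, and *Isg20* (each with an adjusted P of 0.0957), beside 11 of 18291 genes (0.0601%). At an unadjusted P under 0.05, 39 were higher and 0 lower, beside 882 of all genes higher (4.82%), and DESeq2 called 36, beside 452 genes (2.47%). No gene of the list was called lower in mice 3 and 4 by either test in either population. DESeq2 called 33 in both populations, beside 227 of 16497 genes tested in both (1.38%). Leaving out 1 of the 4 libraries leaves 1 residual degree of freedom and a lone library that is assumed to vary like the other pair. In such fits the median log2 fold change of the 43 was 2.02 to 2.14 in FCGR4- libraries and 1.53 to 1.99 in FCGR4+ libraries.

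**Figure D4:**
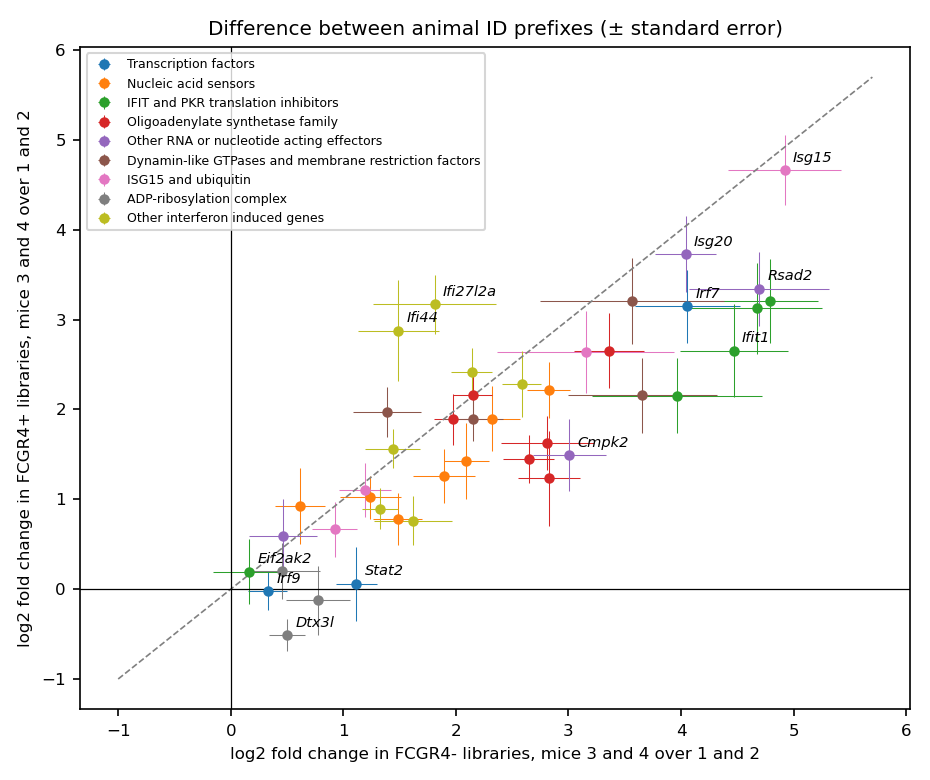
Log2 fold change of mice 3 and 4 over mice 1 and 2 in FCGR4- libraries (x axis) and FCGR4+ libraries (y axis) for the 43 genes, colored by role; bars are standard errors and the dashed line marks equal values. *Isg15* lies at 4.92 and 4.67, *Irf9* and *Eif2ak2* lie near 0, and *Dtx3l* lies at 0.50 and -0.51.

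Genes with and without the promoter motif were set side by side for this difference. Among the 32 genes with a window, the mean of the log2 fold changes in the FCGR4+ and FCGR4- libraries had a median of 1.85 for the 20 with a match and of 2.15 for the 12 without. The 4 genes with 3 matches were at 4.79 (*Isg15*), 4.00 (*Ifit3*), 3.90 (*Ifit3b*), and 3.56 (*Ifit1*). *Isg20* and *Irf7*, with none, were at 3.88 and 3.60, and *Eif2ak2* and *Stat2*, with a match, were at 0.18 and 0.59.

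Markers of classical monocytes differed between the same mice. For 5 of the 6 listed markers, both libraries of mice 3 and 4 were above both of mice 1 and 2 in each population, the exception being *Fn1*. The same held for 11.4% of all tested genes, a share that also stands beside the counts of markers above for the cell types below. *Ly6c2*, which encodes the monocyte surface protein Ly6C, was at 10.4 to 34.6 normalized CPM in mice 1 and 2 and at 314 to 458 in mice 3 and 4. The summed level of the 6 markers, which in mouse 2 was mostly *Fn1*, was 701 to 2217 in mice 1 and 2 and 2607 to 4823 in mice 3 and 4. The summed level of 10 macrophage markers was 27987 to 54331 and 22413 to 29949, most of it *Lyz2*. Of the 10, 1 (*Fcgr1*) was above and 1 (*Mertk*) below in mice 3 and 4 in both populations. Of the 7 neutrophil markers 3 were above, with summed levels of 114 to 404 and 147 to 2412. Mast cell and basophil markers differed in the other direction, with 5 of 7 tested below in mice 3 and 4 in both populations, as were 1904 of all tested genes (11.1%), and summed levels in FCGR4- libraries of 2073 and 1133 in mice 1 and 2 and 194 and 450 in mice 3 and 4. The part of these cell types in the ISG levels was not tested. Markers of plasmacytoid dendritic cells, the main producers of type I interferon in blood, summed to 36.3 to 48.2 in mice 1 and 2 and to 47.5 to 50.6 in mice 3 and 4, while the defining marker *Siglech* was at 0 to 1.08 and *Klk1* at 0 to 0.0623.

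**Figure D5:**
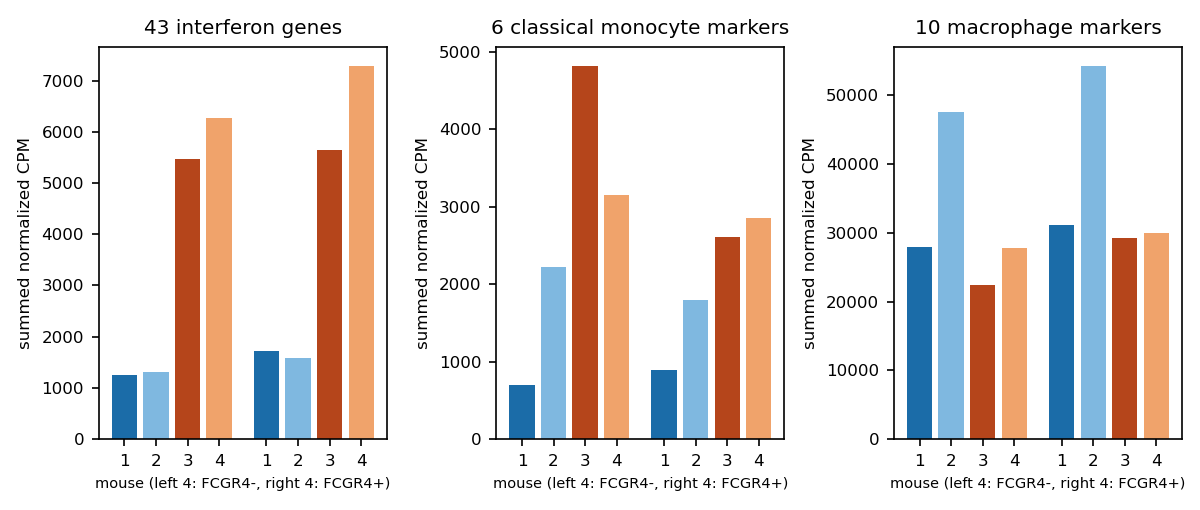
Summed normalized CPM of the 43 ISGs, 6 classical monocyte markers, and 10 macrophage markers in each library (bars, from 0; color marks the mouse). The ISG sum is 1256 to 1712 in mice 1 and 2 and 5472 to 7291 in mice 3 and 4, and the macrophage sum is not higher in mice 3 and 4.

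Elsewhere in the pathway, 114 further genes were listed and 96 of them were tested. Of the 17 type I interferon genes only *Ifnb1* passed the filter on low counts, at 0.270, 0, 0.814, and 0.228 normalized CPM in FCGR4+ and at 0.0462, 0, 0.307, and 0.601 in FCGR4- libraries of mice 1 to 4. Of the other ligands, none exceeded 14 counts in any library. The receptor genes were at 91.0 ± 12.2 (FCGR4+) and 112 ± 16.3 normalized CPM (FCGR4-; SD, n = 4) for *Ifnar1* (-0.29 on the log2 scale, with an adjusted P of 0.595 by edgeR, and -0.17 without mouse 3) and at 142 ± 10.8 and 134 ± 9.94 for *Ifnar2* (0.07, with an adjusted P of 0.855 by edgeR, and 0.0054 without mouse 1). None of the 5 receptor and JAK-STAT, 12 upstream sensor and kinase, or 5 negative regulator genes passed the threshold.

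Of 58 further ISGs tested, edgeR called 1, which was lower, while DESeq2 called it and also 4 that were higher (*Ccl12*, *Gbp2*, *Lgals3bp*, and *Phf11d*). The gene called by both, *Ifitm1*, encodes a membrane restriction factor and was at 3.89, 3.41, 33.5, and 12.02 normalized CPM in FCGR4+ and at 11.5, 14.2, 136, and 42.3 in FCGR4- libraries (-1.86, standard error 0.151, adjusted P = 0.00731 by edgeR). It was lower in FCGR4+ cells in 4 of 4 mice, as were the summed markers of the 7 cell types above, whose part in this was not tested. Of 17 tested targets of IFN-γ, edgeR called 2 and DESeq2 7, all of them higher. *Gbp2* and *Igtp* stand in both lists, and the call on *Gbp2* is counted in each. Over all tested genes, edgeR called 0.0819% higher and 1.19% lower, and DESeq2 called 1.12% higher and 4.87% lower. *Cxcl9*, a T cell chemokine gene, was at 31.6, 7.40, 11.9, and 9.65 in FCGR4+ and at 8.51, 2.44, 4.73, and 3.53 in FCGR4- libraries (1.57, standard error 0.184, adjusted P = 0.0214 by edgeR). *Gbp6*, a guanylate-binding protein gene, was at 47.6, 10.2, 19.6, and 15.4 and at 6.82, 5.24, 6.75, and 5.32 (1.71, standard error 0.304, adjusted P = 0.0737 by edgeR). The call on *Gbp6* was lost without mouse 1, 3, or 4, with log2 fold changes of 1.35, 1.76, and 1.77, and that on *Cxcl9* without mouse 1, at 1.46. The median log2 fold change was 0.76 for the IFN-γ targets and 0.15 for the further ISGs, beside 0.18 for the 43 genes. The FCGR4+ library of mouse 1 stood apart for the IFN-γ targets, with a summed level of 1467 normalized CPM against 347 to 490 in the other FCGR4+ libraries and 241 to 470 in FCGR4- libraries. Without mouse 1 their median was 0.41, with 0 called by edgeR, and that of the further ISGs was 0.074, with *Ifitm1* still called. Between mice, the further ISGs followed the 43 in part: for 32 of 58, mice 3 and 4 were above mice 1 and 2 in both populations, against 1 of 17 IFN-γ targets.

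Per kilobase of gene length, the list spanned more than 3 orders of magnitude. Averaged over the 8 libraries, *Ifitm3* was at 1381 RPKM, *Ifi27l2a* at 796, *Bst2* at 122, *Oas1a* at 92.3, and *Isg15* at 90.4, while *Ddx60* was at 1.27, *Ifi44* at 0.892, and *Mx2* at 0.858. The position of *Isg15* differed between the mice, at 6.42 RPKM in mice 1 and 2 and 174 in mice 3 and 4, whereas *Irf9* was at 5.98 and 6.68.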

How the data were processed

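Bulk RNA-Seq of sorted FCGR4+ and FCGR4- eWAT macrophages from 4 mice was used. The authors mapped read pairs to mm10 with STAR and counted them on GENCODE M18 genes with featureCounts 1.6.3, counting multimapping pairs at each place and ignoring strand. The deposited values are these unnormalized counts, and the deposited gene length, in another unit (bases), was used for RPKM. All per-sample columns were used (0 left out).

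Genes that reached 10 counts in 4 or more of the 8 libraries were tested with edgeR 4.0.16 (R 4.3.3) after TMM scaling, with mouse as a block as in the study's model, a threshold of 0.1, and standard errors from the log2 fold change and F. DESeq2 1.42.0 was an alternative. Mouse numbers in the labels pair the libraries, and deviations of same-mouse libraries correlated at 0.291 to 0.428. Same-population libraries were not duplicates (chi-square per degree of freedom at least 85.0). Per-mouse log2 ratios used a prior count of 2. The 3-count floor covers counting error only. The code was tested on simulated data.

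The members and lists were chosen with earlier results of these data known. Values in each library were given for *Irf7*, *Irf9*, *Stat2* and, until 12 genes were named, those with the largest change in 1 direction in 4 of 4 mice, beside pathway genes past the threshold and *Ifnar1* and *Ifnar2*. A further pathway gene that the rule names is not reported here. *Isg15*, *Rsad2*, *Ifit2*, *Ifnb1*, and the genes in the comparison of ID prefixes were singled out after their values were seen. Shared sequence was measured as 50-base words over GENCODE M21 transcripts.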

Additional observations from a re-analysis of the deposited data

Results flagged for a closer look

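In 1 of 43 sets of 4 per-mouse log2 ratios, for *Ifi203*, mouse 2 stood apart from the other mice, its gap taking 0.840 of the range, above the 95% limit for 4 values. The ratio was -0.34 in mouse 2 and 0.40, 0.40, and 0.54 in mice 1, 3, and 4. Chance alone flags about 1 set in 20, or 2.15 of 43.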

How the results depend on the processing

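No setting called any of the 43 genes lower in FCGR4+ cells. DESeq2 with the paired model called 2 higher, leaving out the filter on low counts gave 1 with edgeR (*Bst2*, adjusted P = 0.0646), and the other settings called 0, including each mouse left out (0 to 0). With no replicate block, 0 of the 43 and 0 other pathway genes were called, and the median log2 fold change of the 43 turned from 0.18 to -0.043. It also turned to -0.23 in mice 3 and 4 alone and to -0.056 without mouse 1, and ran from -0.056 to 0.26 with each mouse left out. It was 0.073 without the 11 genes of shared sequence and 0.095 with library size alone. The other pathway genes called numbered 3, 12 with DESeq2, 7 with the newer quasi-likelihood method, 13 without the filter, 5 with at least 10 counts in every library, 1 in mice 3 and 4 alone, and 1 to 3 with each mouse left out, the lowest without mouse 1. Directions also turned for *Irf7* in mice 3 and 4 alone (-0.041), *Stat2* in mice 1 and 2 alone (0.19), and *Ifnar2* with library size alone (-0.015) and in mice 3 and 4 alone (-0.085). Of the 43 genes, those called higher in mice 3 and 4 numbered 0 in FCGR4+ libraries by edgeR, 34 by DESeq2, 2 with RLE size factors, and 34 with no filter. In FCGR4- libraries they numbered 3 by edgeR, 36 by DESeq2, 36 with no filter, and 0 at a threshold of 0.05. Calls over all genes were not counted with RLE size factors, with no filter, or at 0.05, so these numbers have no share beside them. The causes of these changes were not tested. Of 234 values of 18 named genes under alternatives, 215 kept their direction and side of the threshold, 10 lost and 5 gained a call, and 4 turned direction. With 2 mice a prefix, a test has 2 residual degrees of freedom.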
